A study of Mus musculus with 14 samples.

Results

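Intestinal identity transcription factors are the DNA-binding regulators that keep the gut lining intestinal and direct its cells towards the absorptive fate. The 8 genes described here, Hnf4a, Hnf4g, Cdx1, Cdx2, Klf4, Klf5, Gata6 and Sox9, were taken by name for this role and with earlier results of these data known. They were found by symbol among the 17487 genes listed in both sets of libraries, and all 8 were tested in both. Counts of polyadenylated RNA came from APT organoids, mouse tumor organoids labelled small intestinal, whose abbreviation the labels do not expand. Control 1 and control 2 carried a control hairpin (shCtrl), and hairpin 1 and hairpin 2 carried short hairpin RNAs against Suv4-20h2 (Kmt5c), which adds methyl groups to histone H4 at lysine 20. Hairpin 1 targeted exon 4 and hairpin 2 exon 9, each as 1 clone. Hairpin expression is doxycycline-inducible, and all 4 groups, controls included, received 0.5 µg/ml doxycycline for 4 days. Set 1 comprised 3 libraries each of control 1 and hairpin 1, and set 2 comprised 4 each of control 2 and hairpin 2, with replicates numbered as in the labels. Nothing in the labels says that replicates were separate cultures, so the spread behind every p-value is that between libraries and can be technical.

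HNF4A and HNF4G are nuclear receptors that bind enhancers of lipid-handling and brush border genes in enterocytes, the absorptive cells of the villus. CDX1 and CDX2 are caudal-type homeobox factors that set intestinal as opposed to gastric identity. KLF5 acts in proliferating crypt cells and KLF4 in differentiated and goblet cells, GATA6 supports proximal intestinal and crypt programmes, and SOX9 marks the crypt base and Paneth cells.

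Hnf4a is transcribed from 2 alternative promoters, and it was 1 of the 2 members that fell in set 2. Its 2 start regions are shown beside that of Cdx2, which did not pass the edgeR test in set 2, and no window is shown for Cdx1, the other member that fell. The 3 windows are from RefSeq (GRCm38) and run from 250 bases before to 50 bases after the annotated start, written 5′ to 3′ in the direction of transcription. Their positions are chr2:163506607-163506906 on the plus strand for the upstream start of Hnf4a, chr2:163546905-163547204 on the plus strand for its downstream start, and chr5:147307200-147307499 on the minus strand for Cdx2. Capitals mark the 1 exact match to the motifs searched.
Hnf4a upstream start: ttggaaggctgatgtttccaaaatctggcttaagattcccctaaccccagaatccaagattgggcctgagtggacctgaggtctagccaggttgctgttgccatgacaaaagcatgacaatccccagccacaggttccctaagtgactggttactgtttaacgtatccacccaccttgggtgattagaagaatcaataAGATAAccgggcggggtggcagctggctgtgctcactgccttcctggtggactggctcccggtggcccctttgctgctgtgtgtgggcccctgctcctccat
Hnf4a downstream start: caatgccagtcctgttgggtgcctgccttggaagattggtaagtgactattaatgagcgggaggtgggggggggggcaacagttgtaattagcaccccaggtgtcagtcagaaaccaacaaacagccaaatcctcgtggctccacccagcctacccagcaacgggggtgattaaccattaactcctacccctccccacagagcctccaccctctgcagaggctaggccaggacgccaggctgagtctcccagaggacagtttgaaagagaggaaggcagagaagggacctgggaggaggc
Cdx2 start: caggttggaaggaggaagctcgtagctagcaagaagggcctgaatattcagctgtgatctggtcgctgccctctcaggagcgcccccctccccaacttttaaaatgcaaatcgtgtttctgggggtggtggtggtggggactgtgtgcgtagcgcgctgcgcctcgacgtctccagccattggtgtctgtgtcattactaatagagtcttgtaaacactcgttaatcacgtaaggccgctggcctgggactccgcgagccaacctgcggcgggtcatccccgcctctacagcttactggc

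The motifs were searched on both strands and none overlapped another. They were CAAAGTCCA for HNF4, CCATAAA for CDX, AGATAA for GATA, CCCCACCC for KLF and ACAATGG for SOX. The upstream Hnf4a window held 1 GATA match, beginning at position -52 from the start. The downstream Hnf4a window and the Cdx2 window held none of the 5 motifs, as did the Klf4 window. Among 32851 promoter windows of the same length, 11.2% held the GATA letters. The others were held by 0.475% (HNF4), 2.75% (CDX), 9.99% (KLF) and 3.66% (SOX). The 2 Hnf4a starts lie 40298 bases apart, and counts per gene do not tell their transcripts apart.

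The labels were first checked against the targeted gene. Kmt5c had 72.3, 75.8 and 67.3 CPM (counts scaled to a common library size) in control 1 and 53.6, 64.3 and 56.1 CPM in hairpin 1. It had 129, 121, 116 and 128 CPM in control 2 and 114, 111, 99.3 and 106 CPM in hairpin 2. Each hairpin library was below every control library of its set. Groups did not overlap, in either direction, in 12.8% of all genes tested in set 1 and 15.3% in set 2. The log2 fold changes were -0.31 in set 1 (SE 0.175, edgeR adjusted p = 0.80) and -0.20 in set 2 (SE 0.0619, edgeR adjusted p = 0.098). Neither was past the threshold of 0.05. Blocking on the replicate number left the set 2 value at -0.20 (edgeR adjusted p = 0.0074), and DESeq2 gave an adjusted p of 0.047. Total counts ran from 9272134 to 26284079 per library. The lowest totals were those of hairpin 2 replicates 3 and 4 (9272134 and 11956927), against 19837679 to 26284079 in control 2. Each hairpin has its own control, and levels of one set were not tested against those of the other.

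The labelled tissue was checked against marker genes. All 8 markers of intestinal epithelium, among them Epcam, Vil1 and Cdh17, exceeded a mean of 1 CPM in every group. Their summed level was 5510 to 7340 CPM in control 1, 6180 to 7610 CPM in hairpin 1, 6060 to 6230 CPM in control 2 and 4740 to 5450 CPM in hairpin 2, so that the set 2 groups did not overlap. The colon markers Hoxb13 (311 CPM in control 1 and 216 CPM in control 2) and Car1 (188 and 848 CPM) were present in organoids labelled small intestinal. The 6 colon markers summed to 1070 to 1510 CPM in control 2 and 526 to 613 CPM in hairpin 2, and Car1 made most of that difference, with 141 CPM in hairpin 2. Of 12 gastric and oesophageal markers, 8 were listed in set 2. Sox2 stood at 16.8 CPM in control 1, and its mean was 233 CPM in control 2 and 270 CPM in hairpin 2. Immune markers, 2 of 8 listed in set 2, summed to at most 1.87 CPM in any library. Mesenchymal markers, 6 of 10 listed in set 2, summed to 14.4 to 16.3 CPM in control 2 and 18.2 to 20.3 CPM in hairpin 2, where Pdgfra went from a mean of 9.95 to 14.5 CPM and Pdgfrb from 1.44 to 0.128 CPM. In set 1, where Dcn, Lum and Twist2 were at 0, the sums of 85.8 to 250 CPM in control 1 and 42.6 to 145 CPM in hairpin 1 were nearly all Vim, with means of 149 and 82.7 CPM.

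Hairpin 1 replicate 1 held several markers of other tissues at levels not seen in the other libraries of set 1. Its gastric and oesophageal markers summed to 112 CPM, against 16.3 to 50.9 CPM in control 1 and 29.3 and 35.1 CPM in the other hairpin 1 libraries. Muc5ac, a gastric mucin, was at 63.0 CPM there and at 0.177 to 3.72 CPM in the rest of the set. Krt14 was at 23.3 CPM against 0.41 to 2.62 CPM. Not every marker of that list rose. Gkn3 was at 1.58 CPM there and at 1.59 to 12.8 CPM in the rest of the set, and Gkn2 was at 0 throughout. Of the endothelial markers Cdh5 was at 49.6 CPM in that library and at most 2.15 CPM elsewhere in the set, while the sum of that list, mostly Vwf, was 115 CPM against 111 to 228 CPM in control 1. The liver and pancreas markers summed to 110 CPM there and 45.9 to 64.0 CPM in the other 5 libraries. Afp made most of that sum, at 99.5 CPM against 6.23 to 10.8 CPM. Cela1 of the same list went the other way, at 3.2 CPM against 26.6 to 42.8 CPM. In set 2 the endothelial markers, 3 of 5 listed there, summed to 11.1 to 16.5 CPM. The liver and pancreas markers, 5 of 7 listed there, summed to 3.74 to 9.35 CPM. The part of these marker levels in the results on the 8 factors was not tested, and in bulk RNA fewer cells of a type and less RNA per cell cannot be told apart.

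Levels of the 8 genes can be ranked against each other only per length, here as mean CPM per kilobase of merged exons. In control 1 the highest was Cdx1 (175), followed by Cdx2 (78.0), Hnf4a (65.8), Klf5 (63.8), Sox9 (40.2), Klf4 (33.3), Gata6 (5.45) and Hnf4g (1.36). Hnf4a and Klf5 overlapped there between libraries, as did Sox9 and Klf4. In control 2 the order was Klf5 (97.8), Cdx2 (95.4), Hnf4a (61.2), Sox9 (51.1), Klf4 (38.5), Cdx1 (23.6), Gata6 (9.44) and Hnf4g (1.84), and only Klf5 and Cdx2 overlapped between neighbours. Hnf4g was thus the least abundant member in both controls, and Cdx1 was first in one and sixth in the other. In hairpin 2 Hnf4a (29.7 CPM per kilobase) stood below Klf4 (43.5), and Cdx1 (6.22) stood below Gata6, which reverses both orders of control 2. In hairpin 1 the first 6 members, from Cdx1 (124 CPM per kilobase) to Hnf4a (44.1), each overlapped the next in that order, and Gata6 (7.83) and Hnf4g (1.41) lay below them. By the length of the longest transcript, Klf5 moved to 99.0 CPM per kilobase in control 1, above Cdx2, and Hnf4a in hairpin 1 moved to rank 4.

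**Figure D1:**
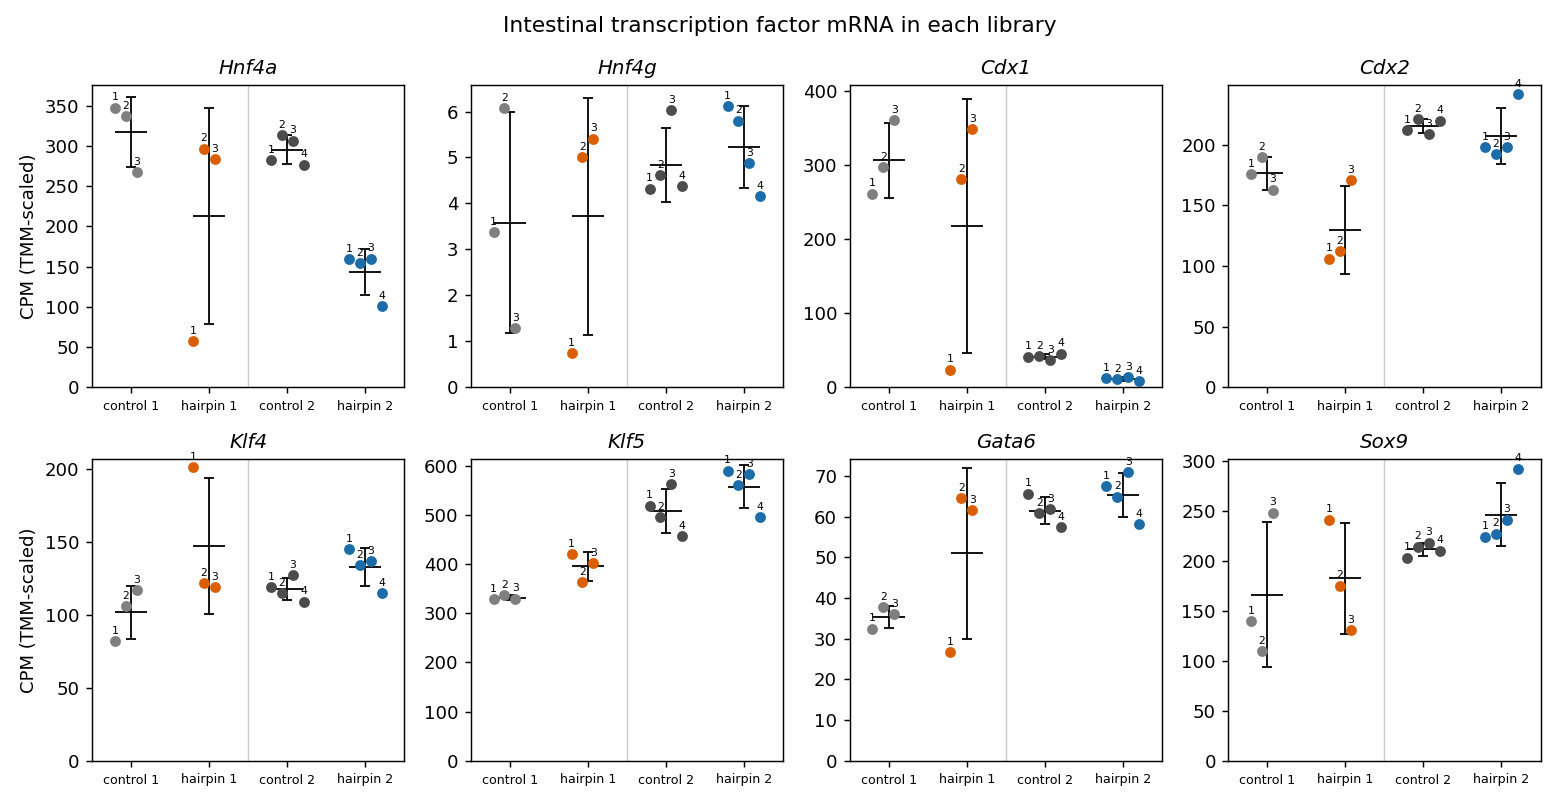
Level of each of the 8 factors in each of the 14 libraries, in CPM on TMM-scaled totals, on axes starting at 0. Points are libraries numbered by replicate, and bars are the group mean with its SD; Hnf4a and Cdx1 are low in all 4 hairpin 2 libraries and in hairpin 1 replicate 1, while the other hairpin 1 libraries lie near their controls.

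The comparison of hairpin 2 with control 2 asked which factors differed when exon 9 was targeted. Cdx1 fell 3.79-fold and Hnf4a 2.06-fold, and their closest relatives Cdx2 and Hnf4g did not pass the test. The remaining 4 members, Klf4, Klf5, Gata6 and Sox9, had small positive fold changes that did not pass. In all, 2 of 8 members were lower and 0 were higher by edgeR, where 854 of 14126 genes passed (6.05%), 288 of them higher (2.04%) and 566 lower (4.01%). Klf4, Klf5 and Sox9 were also called, as higher, when the replicate number was used as a block. That fit called 5 members and 2880 of 14126 genes in all, against 854 without the block. Every blocked count below stands beside that larger share, and the pairing behind it rests mainly on replicate 4. The median log2 fold change of the members was 0.11, against 0.005 over all genes tested. In a model of all 14 libraries, whose estimate of spread includes set 1, no member was called (120 genes in all, and 0 members).

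Hnf4a (ENSMUSG00000017950; GRCm38 chromosome 2, 163506808 to 163572910, plus strand) had 283, 314, 307 and 277 CPM in control 2 and 159, 154, 160 and 101 CPM in hairpin 2. Every hairpin 2 library was far below the lowest control, and replicate 4 was the lowest of them. The mean went from 295 ± 17.9 to 143 ± 28.4 CPM (SD, n = 4 each), a log2 fold change of -1.04 (SE 0.131, edgeR adjusted p = 0.0014). With the replicate block it was -1.06 (adjusted p = 2.7e-06), and without both replicate 4 libraries it was -0.94 (adjusted p = 3.6e-10). The model of all 14 libraries gave the same size, -1.04, with an edgeR adjusted p of 0.48. An antisense gene within the Hnf4a locus, Hnf4aos, shares no exon bases with it and had 1 to 4 counts per library in set 1.

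Hnf4g (ENSMUSG00000017688; chromosome 3, 3508030 to 3658052, plus strand), the paralog that overlaps HNF4A in its binding sites, was scarce. It had 4.32, 4.61, 6.03 and 4.37 CPM in control 2 and 6.11, 5.80, 4.87 and 4.15 CPM in hairpin 2. The groups overlapped, and the log2 fold change was 0.13 (SE 0.167, edgeR adjusted p = 0.73). The log2 ratio of Hnf4a to Hnf4g, on CPM plus 1, was 5.67 ± 0.15 in control 2 and 4.52 ± 0.19 in hairpin 2 (SD, n = 4 each). That is a difference of -1.15 without overlap between groups (two-sided exact permutation p = 0.0286, the smallest that 4 against 4 allows, and 0.0857 adjusted over 6 such ratios).

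Cdx1 (ENSMUSG00000024619; chromosome 18, 61018862 to 61036199, minus strand) had 41.3, 42.1, 36.3 and 45.3 CPM in control 2 and 11.8, 10.9, 13.0 and 7.89 CPM in hairpin 2. The highest hairpin 2 library was well below the lowest control. The mean went from 41.3 ± 3.74 to 10.9 ± 2.18 CPM (SD, n = 4 each), a log2 fold change of -1.92 (SE 0.134, edgeR adjusted p = 2.6e-05). It was -1.93 with the replicate block (adjusted p = 4.2e-07) and -1.77 without both replicate 4 libraries (adjusted p = 6.6e-11). The model of all 14 libraries gave -1.92 with an edgeR adjusted p of 0.20.

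Cdx2 (ENSMUSG00000029646; chromosome 5, 147300805 to 147307270, minus strand), the family member required to specify intestine, had 212, 221, 209 and 220 CPM in control 2. Hairpin 2 had 198, 192, 198 and 242 CPM. The first 3 hairpin 2 libraries lay below every control and replicate 4 above every control, and the log2 fold change was -0.06 (SE 0.0755, edgeR adjusted p = 0.74). Without both replicate 4 libraries and with the replicate block it was -0.13 (adjusted p = 0.019). The other genes of chromosome 5 had a median shift of 0.11 to 0.12 on the log2 scale in each hairpin 2 library, and relative to the median of their fold changes Cdx2 was at -0.17, a value without a test. The log2 ratio of Cdx1 to Cdx2 was -2.36 ± 0.10 in control 2 and -4.15 ± 0.43 in hairpin 2 (SD, n = 4 each), a difference of -1.78 without overlap (two-sided exact permutation p = 0.0286, adjusted 0.0857 over 6 ratios).

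Klf4 (ENSMUSG00000003032; chromosome 4, 55527143 to 55532466, minus strand) had 119, 115, 127 and 109 CPM in control 2 and 145, 134, 137 and 115 CPM in hairpin 2. Replicate 4 was the lowest library of both groups and made them overlap. The log2 fold change was 0.18 (SE 0.0784, edgeR adjusted p = 0.24), 0.18 with the replicate block (adjusted p = 0.020) and 0.20 without both replicate 4 libraries (adjusted p = 0.011). Klf5 (ENSMUSG00000005148; chromosome 14, 99298691 to 99315036, plus strand) had 519, 495, 563 and 457 CPM in control 2 and 590, 561, 583 and 495 CPM in hairpin 2. These groups also overlapped, each hairpin 2 library exceeded the control library of its own number, and the log2 fold change was 0.13 (SE 0.0798, edgeR adjusted p = 0.41, or 0.049 in the fit with the replicate block). The log2 ratio of Klf4 to Klf5 was -2.10 ± 0.03 in control 2 and -2.06 ± 0.03 in hairpin 2 (SD, n = 4 each; two-sided exact permutation p = 0.20, adjusted 0.30 over 6 ratios).

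Gata6 (ENSMUSG00000005836; chromosome 18, 11052064 to 11085635, plus strand) had 65.6, 60.8, 61.9 and 57.4 CPM in control 2 and 67.5, 64.9, 70.9 and 58.1 CPM in hairpin 2. The groups overlapped, with a log2 fold change of 0.09 (SE 0.0727, edgeR adjusted p = 0.57). An antisense gene, 1010001N08Rik, shares 93 exon bases with it and had 5 to 31 counts per library in set 2 and 12 to 33 in set 1. Sox9 (ENSMUSG00000000567; chromosome 11, 112782224 to 112787760, plus strand) had 203, 214, 218 and 210 CPM in control 2 and 224, 227, 241 and 292 CPM in hairpin 2. Every hairpin 2 library of Sox9 was above every control, replicate 4 most, and 15.3% of all genes tested had groups that did not overlap in set 2. Its log2 fold change was 0.22 (SE 0.0828, edgeR adjusted p = 0.17, and 0.21 with adjusted p = 0.025 with the replicate block). It was 0.12 (adjusted p = 0.091) without both replicate 4 libraries.

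**Figure D2:**
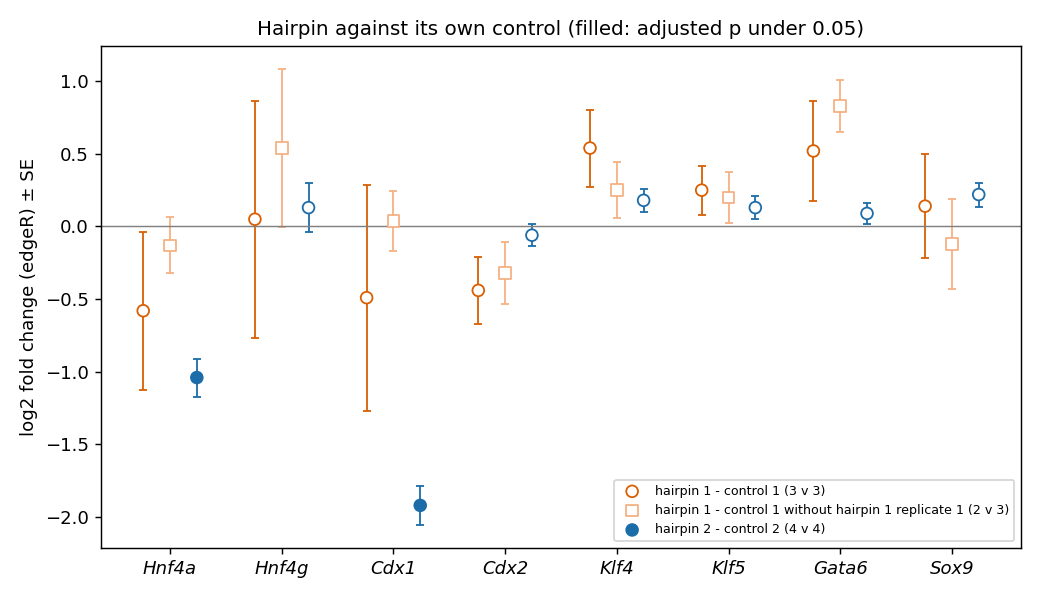
Log2 fold change of each factor by edgeR, with its SE, for hairpin 1, for hairpin 1 without its replicate 1, and for hairpin 2, each against its own control. Filled symbols have an adjusted p under 0.05; Cdx1 (-1.92) and Hnf4a (-1.04) in hairpin 2 are the only filled ones.

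The comparison of hairpin 1 with control 1 asked the same of the exon 4 hairpin. No member was called, and by edgeR 0 of 13540 genes passed (0.0%), with 733 at an unadjusted p under 0.05. DESeq2 called 22 genes, voom with library weights 8 and the model of all 14 libraries 187, and 0 members in each. The median log2 fold change of the members was 0.09, against 0.027 over all genes. One library, hairpin 1 replicate 1, differed from its 2 companions in several members, so each is given by library. That library was the lowest of the 6 in set 1 for 5 of 8 members and the highest for 2, against 33.7% and 30.7% of all genes tested.

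Hnf4a had 348, 337 and 268 CPM in control 1 and 57.5, 297 and 284 CPM in hairpin 1. Cdx1 had 261, 297 and 360 CPM in control 1 and 23.7, 281 and 348 CPM in hairpin 1. In both genes replicate 1 was several-fold below every other library of the set, and replicates 2 and 3 lay within the range of the controls. The log2 fold change was -0.58 for Hnf4a (SE 0.544, edgeR adjusted p = 0.85) and -0.49 for Cdx1 (SE 0.778, adjusted p = 0.91). Without hairpin 1 replicate 1 they were -0.13 (adjusted p = 0.78) and 0.04 (adjusted p = 0.95), so the direction of Cdx1 rested on that library.

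Hnf4g had 3.38, 6.08 and 1.29 CPM in control 1 and 0.746, 5.0 and 5.41 CPM in hairpin 1, with overlapping groups and a log2 fold change of 0.05 (SE 0.816, edgeR adjusted p = 0.99). Cdx2 had 176, 190 and 163 CPM in control 1 and 106, 112 and 171 CPM in hairpin 1. Replicates 1 and 2 of hairpin 1 were below all controls and replicate 3 was among them, with a log2 fold change of -0.44 (SE 0.232, adjusted p = 0.80). The log2 ratio of Cdx1 to Cdx2 was 0.78 ± 0.31 in control 1 and 0.07 ± 1.90 in hairpin 1 (SD, n = 3 each; two-sided exact permutation p = 0.90, adjusted 0.90 over 6 ratios). Its difference of -0.71 turned to 0.38 without hairpin 1 replicate 1. The Hnf4a to Hnf4g ratio differed by -0.86 (two-sided exact permutation p = 0.20, adjusted 0.30) and the Klf4 to Klf5 ratio by 0.26 (p = 0.50, adjusted 0.60), where 3 against 3 cannot go below 0.10.

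Klf4 had 82.0, 106 and 117 CPM in control 1 and 201, 122 and 119 CPM in hairpin 1, a log2 fold change of 0.54 (SE 0.265, edgeR adjusted p = 0.80). Klf5 had 329, 337 and 330 CPM in control 1 and 421, 363 and 402 CPM in hairpin 1, a log2 fold change of 0.25 (SE 0.168, adjusted p = 0.81). Both were above every control in each hairpin 1 library, as 12.8% of all genes were without overlap in this set in either direction. In hairpin 1 replicate 1, Klf5 stood 0.34 above its control mean on the log2 scale while the other genes of chromosome 14 had a median of -0.68. Relative to the median of those genes the Klf5 fold change was 0.38, a value without a test.

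Gata6 had 32.5, 37.8 and 36 CPM in control 1 and 26.8, 64.5 and 61.6 CPM in hairpin 1. Replicate 1 was below all controls and replicates 2 and 3 were above all of them, with a log2 fold change of 0.52 (SE 0.342, edgeR adjusted p = 0.80). Without replicate 1 it was 0.83 (SE 0.18, adjusted p = 0.094), and the groups then did not overlap, as in 35.0% of all genes under that setting. Sox9 had 140, 110 and 248 CPM in control 1 and 241, 175 and 131 CPM in hairpin 1. Its groups overlapped, with a log2 fold change of 0.14 (SE 0.357, adjusted p = 0.95) that became -0.12 without hairpin 1 replicate 1.

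**Figure D3:**
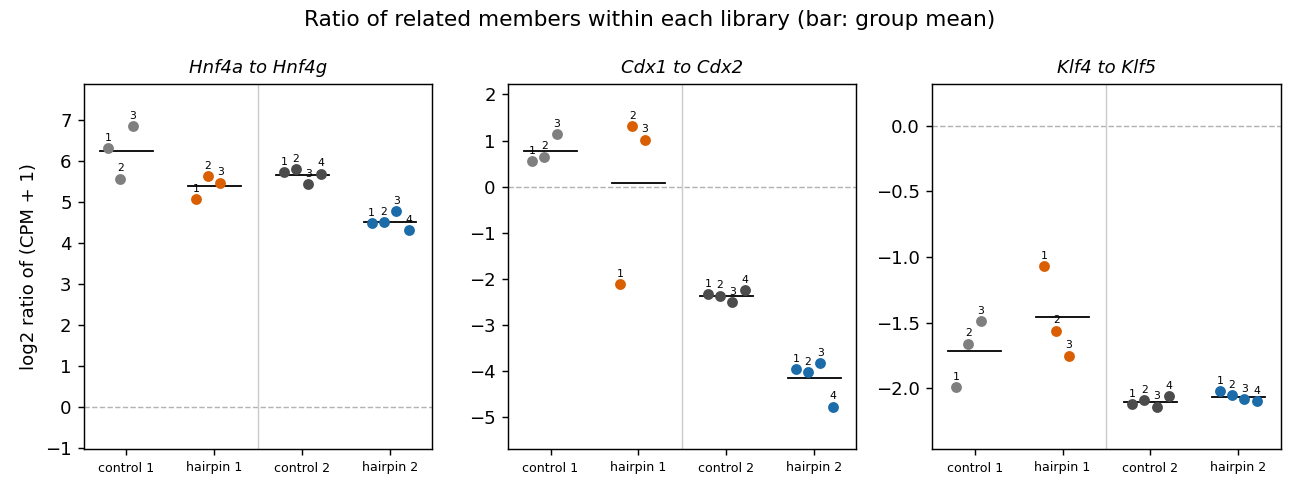
Log2 ratio of CPM plus 1 between related factors (Hnf4a to Hnf4g, Cdx1 to Cdx2, Klf4 to Klf5) in each library, numbered by replicate, with a bar at the group mean. In set 2 the first 2 ratios are lower in every hairpin library than in every control, and the Klf4 to Klf5 ratio stays between -2.14 and -2.02.

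The effects of both hairpins were then compared in one model of all 14 libraries. The difference, hairpin 2 effect minus hairpin 1 effect, was called for 0 of 8 members. Over all genes 62 of 15043 passed by edgeR (0.412%), 1808 had an unadjusted p under 0.05, and DESeq2 called 395 genes and 0 members. The value was -1.44 for Cdx1 (edgeR adjusted p = 0.50), -0.48 for Hnf4a (0.77) and -0.45 for Gata6 (0.61). Without hairpin 1 replicate 1, 959 genes (6.26%) and 3 members passed, with Cdx1 at -2.0 (SE 0.225, adjusted p = 0.00024), Hnf4a at -0.95 (SE 0.22, adjusted p = 0.021) and Gata6 at -0.78 (SE 0.143, adjusted p = 0.0063). Under that setting Cdx1 and Hnf4a were thus lower with the exon 9 hairpin than with the exon 4 hairpin, each relative to its control, and the Gata6 effect was smaller.

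The average of both effects was called for 0 of 8 members by edgeR, with 147 genes past the threshold (0.977%) and 2338 at an unadjusted p under 0.05. DESeq2 called 712 genes and 1 member, Cdx1, at -1.18 (DESeq2 adjusted p = 0.042). Without hairpin 1 replicate 1, edgeR called 1320 genes (8.62%) and 3 members. They were Cdx1 at -0.92 (adjusted p = 0.00067), Hnf4a at -0.57 (adjusted p = 0.0092) and Gata6 at 0.48 (adjusted p = 0.0018). Each of these averages came mostly from 1 hairpin. Cdx1 and Hnf4a were at -1.92 and -1.04 in hairpin 2, and their hairpin 1 values under that setting, given above, were small. Gata6 was at 0.09 in hairpin 2, so its average came mostly from the 2 hairpin 1 libraries left. Without hairpin 1 replicate 3, Cdx2 was the 1 member called, at -0.38 (edgeR adjusted p = 0.043). The share of all genes called under that setting is not given here, so this call cannot be set against it. Batch and hairpin cannot be told apart in these values, since each hairpin has its own set.

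Members varied together across libraries to different degrees. Hnf4a and Cdx1 had a Pearson correlation of log2 CPM plus 1 of 0.97 over the 6 libraries of set 1 and 0.97 over the 8 of set 2. In set 1 hairpin 1 replicate 1 lies far from the other points, and in set 2 the points carry the difference between groups. Klf4 and Klf5 correlated at 0.80 in set 1 and 0.97 in set 2. Hnf4a and Sox9 ran opposite, at -0.63 and -0.87. Hnf4a and Cdx2 had 0.71 in set 1 and -0.03 in set 2, and Klf5 and Gata6 0.11 and 0.85. These are descriptions of few libraries that share their groups and scaling.

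**Figure D4:**
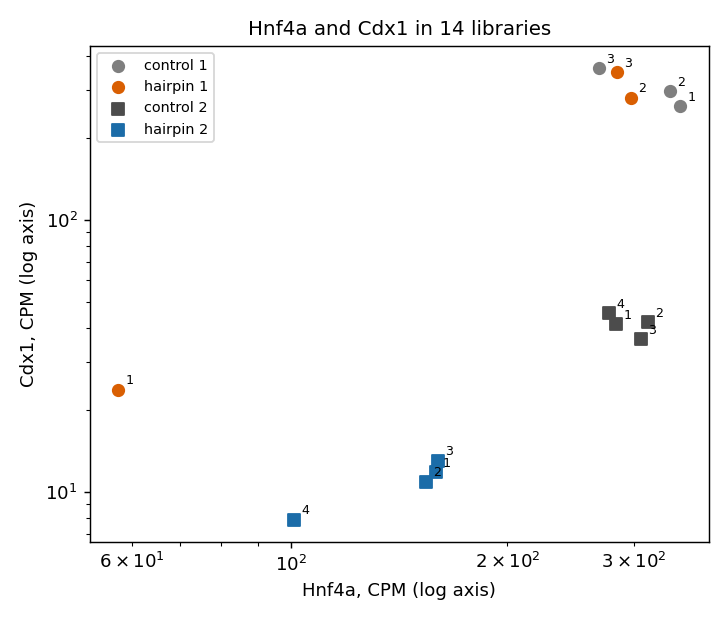
Hnf4a against Cdx1 in the 14 libraries, both in CPM on log axes, with circles for set 1 and squares for set 2 and the replicate number beside each point. All 4 hairpin 2 libraries are below and left of control 2, and hairpin 1 replicate 1 lies apart from the other 5 libraries of set 1 at 57.5 and 23.7 CPM.

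Genes with the most similar profile were sought over the 8 libraries of set 2, among 10449 genes that averaged 5 CPM or more. Both groups were pooled, and Hnf4a and Cdx1 differ between them. Genes found this way therefore fall in hairpin 2 by how they were chosen, and their fold changes are no separate result. Closest to Hnf4a were Ephb2, an ephrin receptor of crypt cells (r = 0.9979), Krt8, a simple keratin (0.9972), Fbln1 (0.9940), Fkbp5 (0.9907) and Pls1, an actin bundler of microvilli (0.9879). Their log2 fold changes ran from -0.41 in Ephb2 to -1.44 in Fbln1. Closest to Cdx1 were Atp1b1, a sodium pump subunit (0.9923), Tmprss2, a membrane serine protease (0.9910), Gramd2 (0.9900), Ablim1 (0.9892) and Car9, a carbonic anhydrase (0.9892). Their log2 fold changes ran from -0.32 in Atp1b1 to -2.76 in Car9, which went from 63.8 to 9.47 CPM.

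Further regulators of intestinal identity came from a list of 32, of which 30 were tested in set 2. Of these 1 rose and 5 fell, with a median log2 fold change of -0.03. Over all genes tested in set 2, 2.04% passed as higher and 4.01% as lower. Counts from this list and those below stand beside these shares. Gata4, the GATA factor of the proximal gut, had 2.77, 1.75, 2.48 and 2.25 CPM in control 2 and 0.223, 0.158, 0.216 and 0.498 CPM in hairpin 2, a log2 fold change of -3.18 (SE 0.318, edgeR adjusted p = 0.00032). Its hairpin 2 values are near the floor, so the size of that change is uncertain. Isx, an intestine-specific homeobox gene, had 48.2, 51.0, 53.5 and 51.4 CPM in control 2 and 16.5, 17.8, 22.8 and 12.4 CPM in hairpin 2 (-1.56, adjusted p = 0.00019). Both were below the controls in every hairpin 2 library. Nr1i2, the pregnane X receptor, fell by 1.33 on the log2 scale (adjusted p = 0.0034), and Foxa2, a forkhead factor, rose by 0.36 (adjusted p = 0.0027). The other lowered genes, named after their values were seen, were Vdr, the vitamin D receptor (-1.43, adjusted p = 0.0046), and Nr5a2 (-1.24, adjusted p = 0.028). With the replicate block 4 rose and 6 fell, and the same counts were found without both replicate 4 libraries. Both of these fits called more genes in all than the main fit.

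In set 1 none of the 28 tested regulators of that list was called, with a median of 0.05. Isx had 32.9, 49.6 and 36.4 CPM in control 1 and 3.60, 57.3 and 72.3 CPM in hairpin 1. Nr1i2 had 53.0, 43.4 and 28.0 CPM in control 1 and 1.71, 34.7 and 36.4 CPM in hairpin 1. Replicate 1 was the lowest library of the set in both, and also in Foxa2, with 6.75 CPM against 48.3 to 69.4 CPM. It was the highest in Foxa1, with 364 CPM against 81.5 to 125 CPM, and in Pparg, with 121 CPM against 38.8 to 66.7 CPM. Over the 28 genes it was the lowest library in 13 and the highest in 10. Foxa1 and Pparg were chosen after their values were seen.

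Among 9 tested of 12 secretory lineage and Notch genes, 0 were called in set 2, with a median of 0.07. Those with the highest levels were Hes1, a Notch target (0.15, edgeR adjusted p = 0.22), and Rbpj, the Notch transcription factor (0.13, adjusted p = 0.58). With the replicate block Hes1 rose (0.16, adjusted p = 0.048) and Dll4, a Notch ligand, fell (-0.69, adjusted p = 0.0010). Of 3 tested GATA genes Gata4 was called, and with the replicate block Gata2 was also called, as higher (0.58, adjusted p = 0.013). Of 10 tested SOX genes 1 was called, Sox18, which fell by 2.89 on the log2 scale (adjusted p = 0.0062). Its mean went from 1.66 to 0.211 CPM, near the floor. With the replicate block, which called more genes in all, 5 rose, Sox2, Sox4, Sox9, Sox12 and Sox21, and 2 fell, Sox13 and Sox18. All 14 tested KLF genes, Klf4 and Klf5 included, had fold changes above 0, with a median of 0.17. Of these, Klf10 (0.31, adjusted p = 0.012) and Klf2 (0.60, adjusted p = 0.041) rose, and the replicate block called 6, with 13 above 0. In hairpin 1 the KLF median was 0.42 with 0 called, and -0.19 without replicate 1.

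Genes described as targets were counted from lists chosen from general knowledge, not from binding data here. Of 14 HNF4 targets 7 were tested in set 2, where 3 fell, 0 rose and the median was -0.07. Fabp2, the intestinal fatty acid binding protein, had 2.73, 3.11, 2.86 and 4.21 CPM in control 2 and 0.134, 0.316, 0.541 and 0.166 CPM in hairpin 2. Every hairpin 2 library was below the lowest control (-3.59, SE 0.332, edgeR adjusted p = 0.00020), at levels near the floor that leave the size of the change uncertain. Cldn15, a pore-forming claudin, fell by 1.43 (adjusted p = 0.0035), and Cdh17, the liver-intestine cadherin, fell by 0.52 (adjusted p = 0.0075). Chosen after their values were seen, Mttp, for lipoprotein assembly (0.23), and Vil1, for villin (-0.06), did not pass.

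Of 14 CDX2 targets 9 were tested in set 2, and 6 fell, 0 rose and all 9 were below 0, with a median of -1.24. Cdx1 itself is one of the 6. Lgals4, an epithelial galectin, had 412, 452, 446 and 554 CPM in control 2 and 198, 185, 201 and 204 CPM in hairpin 2, with no overlap (-1.24, SE 0.0886, edgeR adjusted p = 3.2e-05). Gucy2c, the guanylin receptor, went from 29.9 to 6.69 CPM (-2.18, adjusted p = 0.00023). Isx and Cdh17 are also on this list, and the sixth was Slc5a1, the sodium-glucose transporter (-2.02, adjusted p = 0.00057). Cdx2 itself did not pass in this comparison. By the fit with the replicate block 8 of the 9 fell.

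In hairpin 1, 0 of 12 tested CDX2 targets were called, with a median of 0.17, and 0.56 without replicate 1. Lgals4 had 2010, 2830 and 2380 CPM in control 1 and 871, 2290 and 3140 CPM in hairpin 1. Gucy2c had 190, 148 and 226 CPM in control 1 and 28.8, 191 and 175 CPM in hairpin 1. Replicate 1 was the lowest library of the set in both genes, and in 9 of the 12 tested. It was the highest in 2, among them Cdh17, with 482 CPM against 182 to 359 CPM. Among the 8 tested HNF4 targets it was the lowest in 3 and the highest in 5. Fabp2 differed in that the 3 hairpin 1 libraries (2.85, 2.42 and 2.28 CPM) were above the 3 controls (1.28, 1.18 and 0.351 CPM), with an adjusted p of 0.80.

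Of 18 brush border and enterocyte genes 10 were tested in set 2, and 5 fell and 0 rose (median -0.49). Espn, for the actin bundler espin, did not pass at 0.36 (adjusted p = 0.096), but it was called as higher with the replicate block (0.36, adjusted p = 0.00028) and without hairpin 2 replicate 4 (0.46, adjusted p = 0.0066). Krt20, a keratin of differentiated cells, went from 42.5 to 6.86 CPM (-2.65, edgeR adjusted p = 3.9e-06), and Myo1a, the brush border myosin, from 23.9 to 7.45 CPM (-1.69, adjusted p = 0.00020). Slc5a1 is on this list too, and the others were Mgam, a digestive glucosidase (-0.90, adjusted p = 0.0060), and, named after its value was seen, the metalloprotease gene Mep1b (-2.57, adjusted p = 0.027). The Mep1b mean went from 2.37 to 0.458 CPM, near the floor. Ezr, for ezrin (-0.09), and Cubn, for cubilin (-0.06), did not pass and were chosen after their values were seen. In hairpin 1, 0 of 13 tested genes of this list were called, with a median of 0.26. Krt20 had 8.5, 1.59 and 3.45 CPM in control 1 and 50, 6.51 and 1.86 CPM in hairpin 1, highest in replicate 1, while Myo1a had 26.1, 47.7 and 34.3 CPM and 1.58, 52.3 and 77.4 CPM, lowest in replicate 1. Over the 13 genes that library was the lowest in 6 and the highest in 4.

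The KLF and SOX9 lists were counted in set 2 as well. Of 10 genes related to KLF4 and KLF5 0 were called, including Myc (-0.12, adjusted p = 0.36) and Cdkn1a (0.04, adjusted p = 0.94). In the blocked fit 2 rose, Cdkn1b and Ccnb1, and 2 fell, Muc2 and Egr1. Of 11 tested SOX9-related genes Igfbp5 rose by 0.63 (adjusted p = 0.020) and Ephb2 fell by 0.41 (adjusted p = 0.0051), with a median of -0.23. In the blocked fit Cd24a also rose, and Lgr5, Mmp7 and Ang4 also fell, which made 2 higher and 4 lower.

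**Figure D5:**
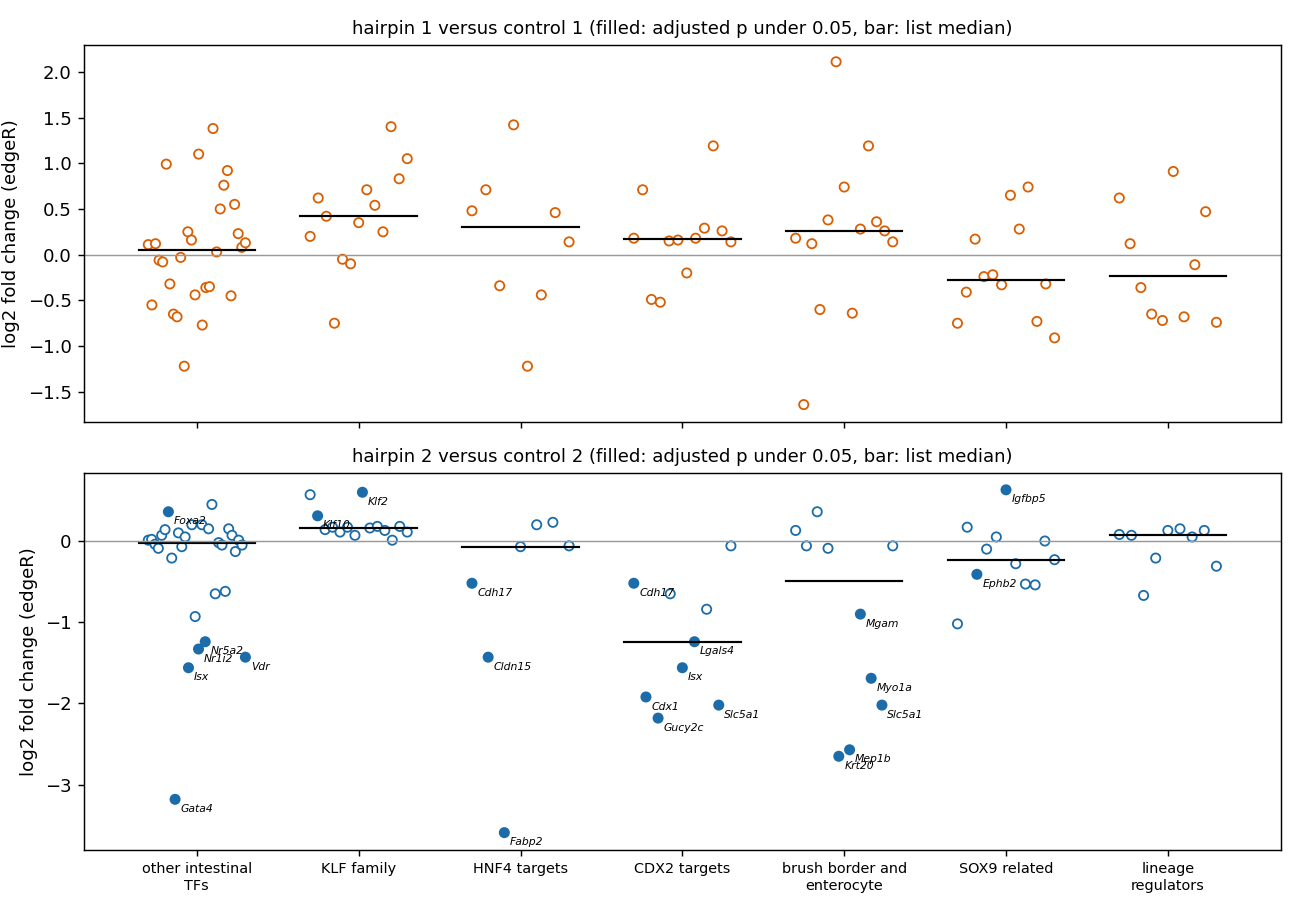
Log2 fold change by edgeR of each tested gene in 7 lists, for hairpin 1 (top) and hairpin 2 (bottom) against their own controls; each point is a gene, filled where its adjusted p is under 0.05, and the bar is the list median. No gene is filled for hairpin 1, and for hairpin 2 the filled points are mostly below 0 in the CDX2 target, brush border and HNF4 target lists.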

How the data were processed

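Stranded poly(A) libraries were sequenced, per the labels' protocols. Each library has 1 deposited file of raw counts per gene, all whole numbers, with no sign that the authors scaled them. The submitters' processing notes name the GRCm38 build, STAR, featureCounts, FastQC, bcl2fastq 2.20 and DESeq2. Settings, including the strand setting of counting, were not given in the sources used here. The files hold 55421 genes in set 1 and 17490 in set 2. GENCODE M21 gave symbols for 55240 and 17471 of them.

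CPM were counts over TMM-scaled totals. Tests within a set used the quasi-likelihood method of edgeR 4.0.16 in R 4.3.3, the filterByExpr filter and Benjamini-Hochberg adjustment over all genes tested, at 0.05. A 4-group model of all 14 libraries gave the difference and the average of both effects. Ratios of members used log2 of CPM plus 1 and an exact permutation test. Alternatives were DESeq2 size factors, no filter, the DESeq2 1.42.0 Wald test, voom with quality weights (limma 3.58.1), the replicate block, the 14-library model, leaving out each library or both replicate 4 libraries, subtraction of a chromosome median, a pseudocount of 0.1 CPM, unscaled totals and the longest transcript as length. The replicate block without both replicate 4 libraries was added after seeing the data. Scripts were tested on simulated data, and Python 3.11.15 with pandas 2.3.3, SciPy 1.17.1 and matplotlib 3.10.9 made the tables and figures.

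Members and gene lists were chosen with earlier results of these data known. All members and Kmt5c were named, plus, from each list, up to 4 genes past the threshold by smallest p or, where none passed, the 2 with the highest mean CPM, here that of set 2. The 5 genes most correlated with each member called in set 2 were also named. Deviations from group means of same-numbered libraries correlated at 0.249, 0.153, 0.247 and 0.598 in set 2, all over 0.1. The numbers were therefore taken to pair those libraries, from the data and not the labels. Differently numbered libraries among replicates 1 to 3 also correlated, at 0.108 to 0.216. Those of replicate 4 with another number were at -0.391 to -0.268, so the pairing rests mainly on replicate 4. In set 1 they were 0.231, -0.0169 and 0.269, and no pairing was taken.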

Additional observations from a re-analysis of the deposited data

Results flagged for a closer look

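In each group of 4 libraries, every member's highest or lowest library was compared with its nearest neighbour, relative to the range of the group, by Dixon's criterion. Of 16 such groups 2 were beyond the 95% limit, where chance gives about 1 in 20. Both were in hairpin 2 replicate 4. Hnf4a had 101 CPM there, against 154 CPM in the nearest library, a gap of 0.906 of the range. Cdx2 had 242 CPM there, against 198 CPM in the nearest library, a gap of 0.884 of the range.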

How the results depend on the processing

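For hairpin 2 the direction of all 8 members was kept in every alternative run. Beside 854 genes and 2 members, the calls were 1346 genes with DESeq2, 2466 and 4 members with voom, and 2880 and 5 members with the replicate block. The model of all 14 libraries called 120 genes and 0 members. Without both replicate 4 libraries 2396 genes were called, with 1 member higher, Klf4, and 2 lower. With the replicate block added to that, 3529 genes and 6 members were called. Leaving out each library gave 453 to 1409 genes and 2 to 3 members, and Klf4 was the third, at 0.24 without hairpin 2 replicate 4 (edgeR adjusted p = 0.035). For hairpin 1 the calls were 0 genes with the replicate block, 22 with DESeq2, 8 with voom, 187 in the model of all 14 libraries, and 0 to 1 leaving out each library, with 0 members throughout. There Hnf4g was at -0.14 with the replicate block. Leaving out each library moved the hairpin 1 values over -0.34 to 0.67 for Hnf4g, -0.99 to 0.04 for Cdx1 and -0.09 or -0.12 to 0.57 for Sox9, and the Cdx1 to Cdx2 ratio over -1.33 to 0.38. The difference between hairpins gave 395 genes with DESeq2 and 65 with the replicate block, and 27 to 959 genes and 0 to 3 members leaving out each library, with Hnf4g at -0.57 to 0.44 and Sox9 at -0.33 to 0.30. The average gave 712 genes and 1 member with DESeq2 and 42 to 1320 genes and 0 to 3 members leaving out each library, with Hnf4g at -0.10 to 0.41. With all libraries, the replicate block changed the calls of Klf4, Klf5 and Sox9 in hairpin 2 and of no other member. Without both replicate 4 libraries it added Cdx2, Klf5 and Sox9. The cause of these shifts was not tested. Among the 8 members, depth limits Hnf4g most, at 0.746 to 6.11 CPM.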
